A study of Mus musculus with 6 samples.

Results

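The genes described here encode the secreted Wnt ligands, their Frizzled and Lrp receptors, the R-spondins with their Lgr receptors, and the secreted Wnt inhibitors. They were picked by a rule on symbols (Wnt, Fzd, Lrp5, Lrp6, Rspo, Sfrp, Dkk, Lgr4 to Lgr6, Wif1 and Frzb), which gave 48 of the 34590 gene symbols listed in the count table. These genes, like the other gene lists used below, were chosen with earlier results of these data known. Of these 48 genes, 41 had 10 or more counts in at least 3 of the 6 libraries, and the same 41 passed the filter on low counts of edgeR (a program that tests counts for differences between groups) and were tested among 17345 genes. The other 7 genes, Wnt3, Wnt3a, Wnt7a, Wnt8b, Rspo4, Dkk1 and Dkk4, had between 0 and 12 counts in any library and were not tested.

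Wnt proteins are lipid-modified ligands that bind a Frizzled receptor together with the co-receptor Lrp5 or Lrp6, which stabilises β-catenin and switches on TCF/LEF target genes. R-spondins bound to Lgr4, Lgr5 or Lgr6 keep Frizzled and Lrp proteins on the cell surface, whereas Sfrp, Frzb and Wif1 proteins bind Wnt ligands and Dkk1, Dkk2 and Dkk4 bind Lrp5 and Lrp6. In the mammary gland, luminal cells that carry the progesterone receptor secrete Wnt4, which acts on neighbouring myoepithelial cells, and Wnt signaling is known to sustain mammary stem cells.

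The libraries came from 3 host mice with WT fat pads cleared of their own epithelium. The left inguinal gland (gland number 4) of each host was engrafted with WT.EGFP+ epithelium and the right one with Adamts18-/-.EGFP+ epithelium. Genotype therefore cannot be told apart from body side. Adamts18 is a secreted protease, and the Adamts18-/- allele lacks the exons that encode its catalytic site. The EGFP came from the Tg(Act-EGFP) transgene in both genotypes, the strains were kept on a C57BL/6JOlaHsd background, and the fat pads that received the grafts were WT on both sides. The pairs came from independent experiments with different donors, so host, experiment and donor cannot be told apart. The age of the grafts at RNA extraction is not given in the sources used here.

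Total counts were between 53875123 and 71595924 per library. At this depth a count of 0 allows up to 3 counts, or 0.043 to 0.0574 CPM (counts per 1000000 of a library total adjusted by edgeR's TMM factor), which covers counting error only. Adamts18 had 252, 608 and 383 counts in WT glands and 144, 295 and 202 counts in Adamts18-/- glands, with hosts in the order 1, 2 and 3 here and in every later list. The log2 fold change was -0.83 (SE 0.19, unadjusted p of 0.00922, adjusted p = 0.987 by edgeR with the Benjamini-Hochberg method). Each Adamts18-/- gland was below its pair, by -0.39, -1.02 and -1.04 on the log2 CPM scale, but the groups overlapped. The study also reported Adamts18 expression in the stroma of WT fat pads, and its part in these counts was not tested. The labels describe sorted GFP-positive mammary epithelial cells, but adipocyte and fibroblast markers were abundant in every library: Adipoq lay between 525 and 1620 CPM, and the summed level of 8 fibroblast markers between 9676 and 13574 CPM, against 1159 to 2267 CPM for 16 pan-epithelial markers. The libraries are therefore called glands. In such mixed RNA, fewer cells of a type and less RNA per cell cannot be told apart. Summed skeletal muscle markers were at 9767 and 9580 CPM in the Adamts18-/- glands of mice 1 and 2 and between 257 and 2467 CPM in the other 4 glands. Summed leukocyte markers were at 1268 CPM in the Adamts18-/- gland of mouse 3 and between 416 and 713 CPM in the other 5 glands.

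The secreted inhibitors and the receptors were the most abundant of these transcripts for their length. Per kilobase of exon, Sfrp2 (37.4 CPM per kb, mean of 6 glands) and Sfrp4 (31.3 CPM per kb) stood highest. Their WT levels were 36.7 ± 12.8 and 32.1 ± 11.7 CPM per kb (SD between glands, n = 3). Both varied between glands, but within each of the 6 glands Sfrp2 was the higher per kilobase. Fzd4 (21.9 CPM per kb), a Frizzled known from retinal blood vessels, came next, followed by Lrp6 (13.9 CPM per kb), Fzd7 (11.7 CPM per kb), Dkk3 (11.2 CPM per kb) and Lrp5 (10.5 CPM per kb). Among the R-spondin and Lgr genes, Lgr4 (8.6 CPM per kb) and Rspo1 (4.93 CPM per kb) were highest, and Lgr5, an adult stem cell marker, was at 0.548 CPM per kb.

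The ligand transcripts were lower than those of the leading receptors. Wnt5b, at 8.28 ± 1.65 CPM per kb in WT glands, Wnt4, at 6.21 ± 1.31 CPM per kb, and Wnt2, at 5.76 ± 2.75 CPM per kb (SD between glands, n = 3 each), led the 19 ligands by mean. Within every gland Wnt5b was above Wnt4 per kilobase, while the place of Wnt2 changed between glands. Wnt5a (4.21 CPM per kb), Wnt10b (4.10 CPM per kb), Wnt11 (3.28 CPM per kb), Wnt9a (2.52 CPM per kb) and Wnt7b (1.94 CPM per kb) followed, each as the mean of 6 glands. Wnt3a, a ligand often used to activate the β-catenin branch in culture, had 1 count in a single gland, and Dkk1, the best-known Lrp5 and Lrp6 antagonist, had at most 3 counts in any gland.

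**Figure D1:**
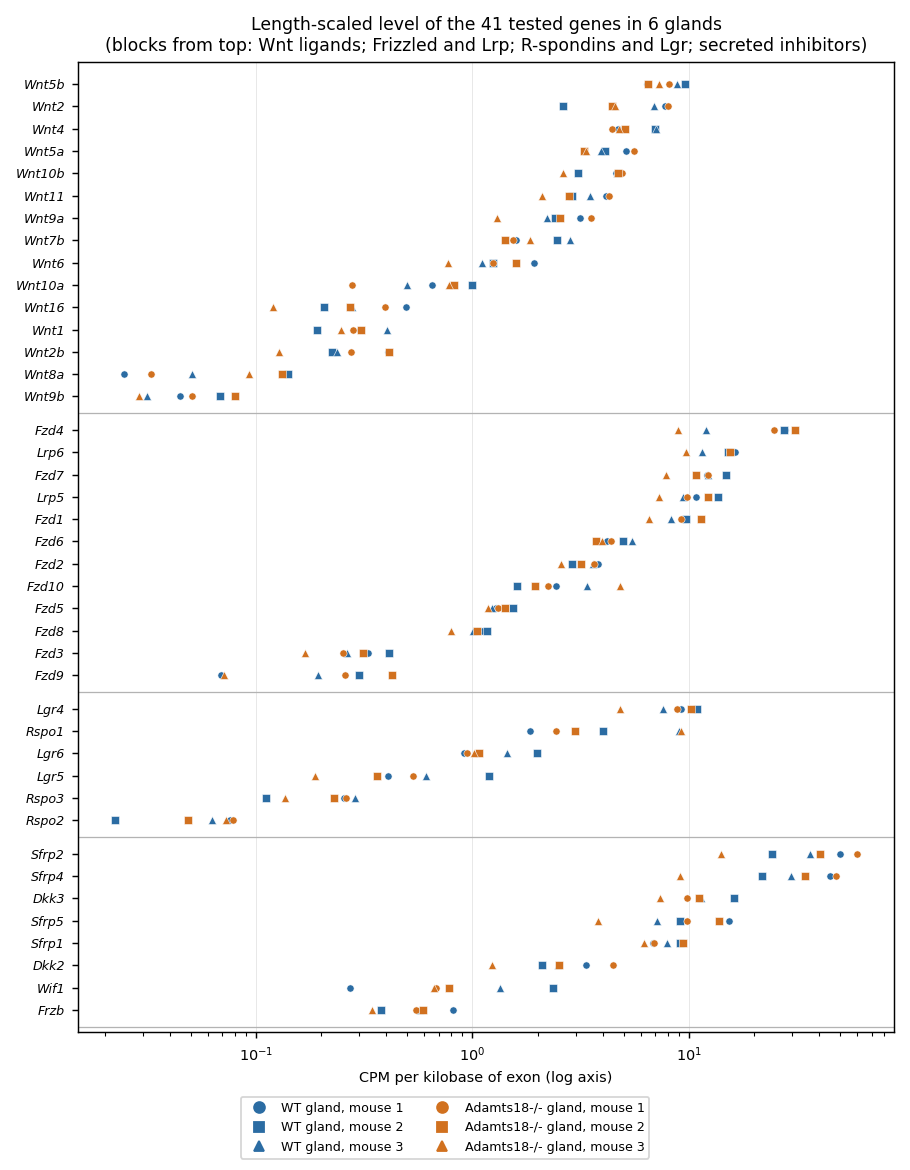
Level of each of the 41 tested genes, in CPM per kilobase of exon on a log axis, with 1 point per gland (colour for genotype, shape for mouse), grouped by role and sorted by mean level. Sfrp2, Sfrp4 and Fzd4 lead, the WT and Adamts18-/- points of most genes intermingle, and the Adamts18-/- gland of mouse 3 (orange triangle) lies below its WT pair for 36 of the 41 genes.

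The comparison of Adamts18-/- with WT epithelium asks how loss of the protease changes transcripts in glands that share a host. Genes were counted as lower or higher at the thresholds of the study, a fold under 0.8 (or above its inverse for higher) together with an unadjusted p below 0.05. By that measure 4 of the 41 tested genes, the ligands Wnt4 and Wnt7b, the receptor Fzd3 and the secreted Dkk3, were lower in Adamts18-/- glands, while 1.84% of all tested genes were. None of the 41 was higher, against 1.17% of all tested genes. Lrp5 had an edgeR p of 0.0445 with a fold of 0.863, which misses the fold threshold. No gene passed by adjusted p (0 of 41, and 0.0% of all tested genes). The adjusted p was 0.987 or above for each of the 41 genes, so each of the 4 is a change by unadjusted p only. An exact permutation of the genotypes within 3 pairs cannot give a p below 0.25, so no exact test of a single gene could reach the threshold. The calls also needed the comparison within hosts: without the mouse as a replicate block, none of the 41 genes was called (0.721% of all tested genes were lower) and the p-values of the 4 were between 0.0692 and 0.174.

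Wnt4 is the ligand that progesterone induces in luminal cells, and the study measured it, with Lgr5 and Lrp6, in other grafts. It lies on chr4:137277489-137299726 of GRCm38, on the plus strand. Its level was 19.7, 29.1 and 29.4 CPM in WT glands and 18.5, 21.2 and 19.9 CPM in Adamts18-/- glands. The WT gland of mouse 1 was as low as the Adamts18-/- glands, so the groups overlapped, but each Adamts18-/- gland was below its contralateral gland, by -0.09, -0.46 and -0.56 on the log2 CPM scale. The means were 26.1 ± 5.51 and 19.8 ± 1.31 CPM (SD, n = 3), and the fitted log2 fold change was -0.37 (SE 0.12, unadjusted p of 0.0298, edgeR). Without mouse 2 or mouse 3 its p was 0.126 or 0.0791.

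Of the 48 genes, 31 had a promoter in the RefSeq table for GRCm38.p6, and Wnt4 was the only one of the 4 called genes among them. The 104 bases just before its annotated start, at chr4:137277385-137277488 on the plus strand, are shown because they belong to the called ligand with the highest level. Capitals mark GC boxes, the core site of Sp-family factors, searched as GGGCGG and CCGCCC.
Wnt4 promoter: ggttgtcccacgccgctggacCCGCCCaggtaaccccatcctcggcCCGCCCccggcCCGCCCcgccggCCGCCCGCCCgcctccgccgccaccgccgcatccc
The window held 5 matches to CCGCCC, with overlapping matches counted. The first 104 bases of each of the 32851 promoter entries were searched in the same way, and 11% held a GC box on either strand. The TCF/LEF cores CTTTGA and CTTTGT and the hormone receptor core TGTTCT had 0 matches in the Wnt4 window on either strand. Of the 32851 windows, 13.3% and 7.31% held them. In other entries these bases need not lie just before an annotated start, so the shares are not rates for such sequence. These letters describe the window and were not tested against expression.

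Wnt7b, a ligand made by luminal cells, lies on chr15:85535437-85582473 of GRCm38, on the minus strand. It was at 7.77, 12.1 and 13.9 CPM in the WT glands and at 7.51, 6.90 and 9.01 CPM in the Adamts18-/- glands. As for Wnt4, the pair from mouse 1 barely differed (-0.05 on the log2 CPM scale) and those from mice 2 and 3 did (-0.80 and -0.62). The fitted log2 fold change was -0.49 (SE 0.18, unadjusted p of 0.0472, edgeR), and without mouse 2 or mouse 3 its p was 0.198 or 0.101. An exon of Wnt7b overlaps AU022754 on the opposite strand, which was itself at 1.98, 2.37 and 2.74 CPM in WT glands and 1.95, 1.22 and 1.55 CPM in Adamts18-/- glands. The strand setting of the counting is not given in the sources used here, so reads in the overlap cannot be assigned. Exons of Sfrp2, Tle2 and Axin2, described later, also overlap genes on the opposite strand (Gm26771, Gm15917 and Gm11670).

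The other leading ligands did not pass the thresholds. Wnt5b, which signals mainly without β-catenin, was at 17.0, 25.4 and 23.4 CPM in WT glands and 21.5, 17.2 and 19.4 CPM in Adamts18-/- glands, with groups that overlapped (log2 fold change -0.17, SE 0.19, unadjusted p of 0.422, edgeR). Wnt2, a ligand of stromal cells, was at 17.5, 5.92 and 15.5 CPM in WT glands and 18.1, 9.98 and 10.3 CPM in Adamts18-/- glands (0.07, SE 0.27, unadjusted p of 0.813). Its lowest value was the WT gland of mouse 2, and its pairs moved by 0.05, 0.75 and -0.58, so the direction depended on the host. Over the 15 tested ligands, 2 were called lower and none higher, against 1.84% and 1.17% of all tested genes. Of the 15, 12 were fitted below 0, and the median log2 fold change was -0.17.

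Fzd3, a Frizzled known for its role in planar cell polarity, was the called gene whose 3 pairs moved most evenly. It was at 4.20, 5.28 and 3.36 CPM in the WT glands and at 3.23, 3.98 and 2.16 CPM in the Adamts18-/- glands. The groups overlapped, with mouse 2 highest and mouse 3 lowest in both genotypes, and the within-host differences were -0.38, -0.41 and -0.63. The gene lies on chr14:65192449-65262463 of GRCm38, on the minus strand. Its fitted log2 fold change was -0.47 (SE 0.15, unadjusted p of 0.0296, edgeR), and with 133 to 324 counts per library it was the least abundant of the 4. With any single mouse left out its p was between 0.0662 and 0.109, and with DESeq2 it was 0.0607.

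The most abundant receptors did not pass the thresholds. Fzd4 was at 187, 184 and 80.6 CPM in WT glands and 166, 208 and 59.6 CPM in Adamts18-/- glands. Both glands of mouse 3 were low, and the genotypes overlapped (log2 fold change -0.14, SE 0.14, unadjusted p of 0.345). The co-receptor Lrp6 was at 223, 207 and 157 CPM in WT glands and 211, 211 and 132 CPM in Adamts18-/- glands (-0.10, SE 0.09, unadjusted p of 0.322). Again the glands of mouse 3 were the lowest of each genotype. Over the 12 Frizzled and Lrp genes, 1 was called lower and none higher, against 1.84% and 1.17% of all tested genes. Of the 12, 10 were fitted below 0, and the median was -0.14. The extremes were Fzd3 at -0.47 and Fzd9 at 0.37. Summed over the 12 genes the level was 672, 694 and 488 CPM in WT glands and 628, 692 and 385 CPM in Adamts18-/- glands.

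None of the 6 tested R-spondin and Lgr genes was called, although Lgr5 had the largest fitted difference of all 41 genes. Lgr5 was at 4.17, 12.2 and 6.25 CPM in the WT glands and 5.45, 3.73 and 1.92 CPM in the Adamts18-/- glands. In mice 2 and 3 the Adamts18-/- gland was well below its pair (-1.70 and -1.69), while in mouse 1 it was above it (0.38), and the groups overlapped. The fitted log2 fold change was -1.03 (SE 0.50, unadjusted p of 0.0967, edgeR). DESeq2 gave the same fold with a p of 0.0244, and edgeR without mouse 1 gave -1.71 with a p of 0.00137 (adjusted p no lower than 0.264 under any setting).

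Lgr6, the close relative of Lgr5, differed like it in mice 2 and 3 (-0.89 and -0.50) and not in mouse 1 (0.03; fitted -0.46, SE 0.21, unadjusted p of 0.0852). Lgr4, the widely expressed member, was at 54.2, 63.9 and 44.6 CPM in WT glands and 52.1, 60.4 and 28.3 CPM in Adamts18-/- glands (-0.26, SE 0.14, unadjusted p of 0.132, edgeR). Its pairs differed by -0.06, -0.08 and -0.66, with the Adamts18-/- gland of mouse 3 lowest. Rspo1, the ligand of these receptors in the mammary gland, varied mainly between hosts. It was at 3.58, 7.78 and 17.5 CPM in WT glands and 4.72, 5.79 and 17.9 CPM in Adamts18-/- glands, with a log2 fold change of -0.00 (SE 0.19, unadjusted p of 0.984) and a difference between hosts at an unadjusted p of 0.00092 (adjusted p = 0.0575, edgeR).

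Dkk3 was the gene with the smallest p of the 41 and the only one whose genotypes did not overlap. Despite its name it is not known to bind Lrp5 or Lrp6 as the other Dkk proteins do. It was at 37.5, 54.0 and 38.3 CPM in the WT glands and 32.9, 37.4 and 24.8 CPM in the Adamts18-/- glands. The highest Adamts18-/- gland was just under the lowest WT gland, and the pairs differed by -0.19, -0.53 and -0.62. Means were 43.3 ± 9.31 and 31.7 ± 6.36 CPM (SD, n = 3), and the fitted log2 fold change was -0.45 (SE 0.11, unadjusted p of 0.0108, edgeR). Without mouse 2 its p was 0.0619, and its adjusted p ranged from 0.246 to 1.0 over the settings tried. All Adamts18-/- values lay below all WT values in 2.63% of tested genes, so 1 of 41 is near that share. All lay above in none of the 41 genes, against 2.31% of tested genes. The gene is on chr7:112116017-112159057 of GRCm38, on the minus strand.

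**Figure D2:**
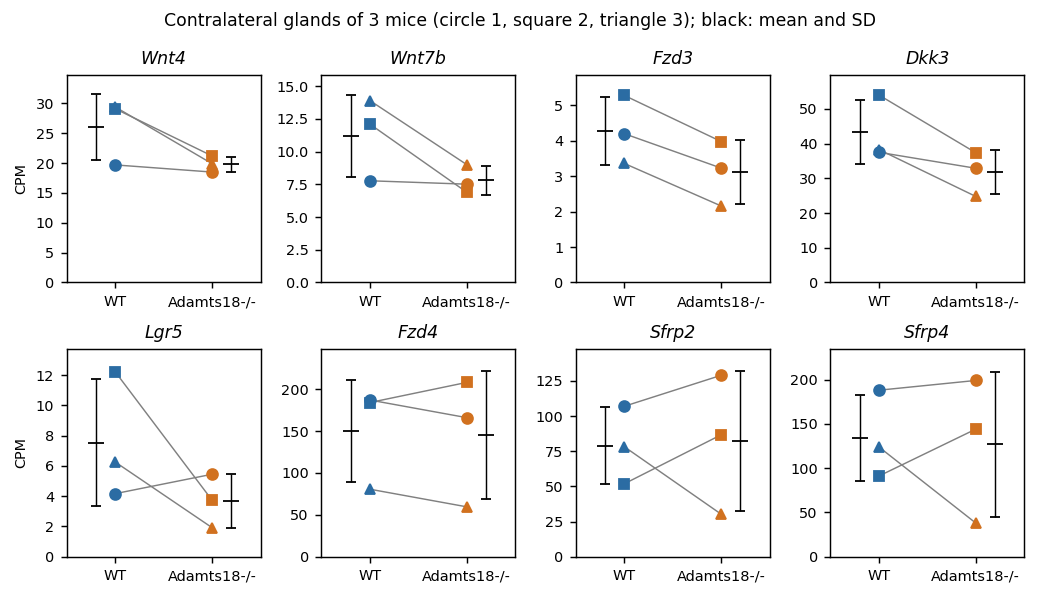
CPM of 8 genes in the WT and Adamts18-/- glands, with lines joining the glands of each host (circle, square and triangle for mice 1, 2 and 3) and black bars for the mean and SD of 3 glands. Lines for Wnt4, Wnt7b, Fzd3 and Dkk3 slope down or run level in every pair, those for Lgr5 slope down in mice 2 and 3, and those for Sfrp2 and Sfrp4 slope up in mice 1 and 2 and down in mouse 3.

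The Sfrp genes showed how far the hosts disagreed. Sfrp2, a secreted Wnt-binding protein of stromal fibroblasts, was at 107, 51.9 and 78.2 CPM in WT glands and 129, 86.7 and 30.3 CPM in Adamts18-/- glands. Sfrp4 was at 188, 91.1 and 124 CPM in WT glands and 199, 144 and 38.2 CPM in Adamts18-/- glands. For both genes the Adamts18-/- gland was above its pair in mice 1 and 2 and far below it in mouse 3 (0.28, 0.74 and -1.37 for Sfrp2, and 0.09, 0.66 and -1.70 for Sfrp4). The fitted values averaged over these pairs, at -0.10 (SE 0.44, unadjusted p of 0.833) for Sfrp2 and -0.29 (SE 0.49, unadjusted p of 0.574, edgeR) for Sfrp4. Without mouse 3, the Sfrp2 difference was 0.51 (unadjusted p of 0.009) and that of Sfrp4 was 0.38 (unadjusted p of 0.0522).

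All 8 tested inhibitors were lower in the Adamts18-/- gland of mouse 3, with a median of -0.95, against medians of 0.06 and 0.43 in mice 1 and 2. Their summed level was 406, 269 and 303 CPM in WT glands and 430, 348 and 135 CPM in Adamts18-/- glands. In mouse 3 the fibroblast markers Dcn, Dpt, Lum and Pdgfra were also lower in the Adamts18-/- gland (-0.84, -0.55, -0.55 and -0.50), while Postn and Col3a1 were higher (1.44 and 0.81), so that the summed level of all 8 fibroblast markers was 10586 CPM in its WT gland and 13574 CPM in its Adamts18-/- gland. The median of the 7 leukocyte markers in the same pair was 1.40. The part of these other cells in the inhibitor values was not tested.

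Across all 41 genes, the differences varied from host to host. The median log2 difference between contralateral glands was 0.02 in mouse 1, 0.04 in mouse 2 and -0.58 in mouse 3, where 36 of the 41 genes were lower in the Adamts18-/- gland. Over all tested genes these medians were -0.01 in each mouse. In the fit, 35 of 41 genes were below 0 with a median of -0.17, against a median of 0.00 over all tested genes. Without mouse 3 the median of the 41 genes was 0.00, 1 gene was called lower (Dkk3) and 2 were called higher (Dkk2 and Sfrp2), against 1.65% and 3.34% of all tested genes.

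Most genes, here and among all tested genes, did not keep the same direction in every host. Of the 41, 7 were lower in the Adamts18-/- gland of all 3 mice, against 12.7% of tested genes, and 1 (Rspo2) was higher in all 3, against 10.8%. Lower values in both mice 2 and 3 were seen for 16 genes, against 22.3% of tested genes. A further 20 were higher in mouse 2 and lower in mouse 3, against 28.5%. For the level itself, 13 of 41 genes differed between hosts at an unadjusted p under 0.05, a share near the 27.2% of all tested genes, and none did so by adjusted p, against 0.628%. Besides Rspo1, the smallest p between hosts was that of Fzd4 (unadjusted p of 0.00095, adjusted p = 0.0575, edgeR), which was low in both glands of mouse 3.

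**Figure D3:**
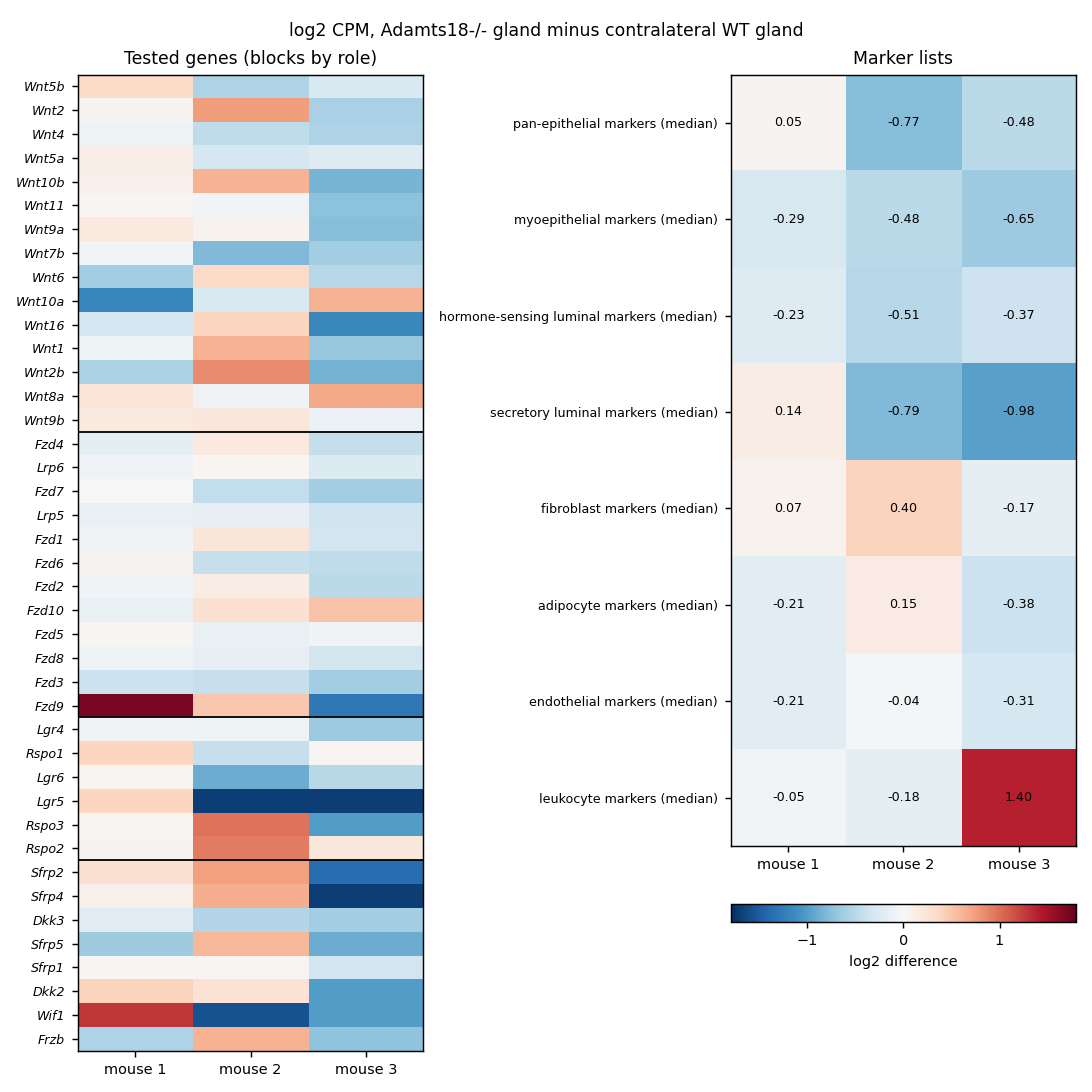
Left, log2 CPM of the Adamts18-/- gland minus the contralateral WT gland for each tested gene and mouse (blue lower, red higher), in blocks of ligands, Frizzled and Lrp genes, R-spondin and Lgr genes, and inhibitors. Right, the median of the same difference over marker lists, printed in each cell; skeletal muscle, whose medians were 5.08, 3.66 and -0.62, is left out of the colour scale. The inhibitor block turns blue in mouse 3, where the leukocyte median is 1.40.

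Epithelial markers also differed between the contralateral glands. The 4 called genes differed by -0.09 (Wnt4), -0.05 (Wnt7b), -0.19 (Dkk3) and -0.38 (Fzd3) in mouse 1. Each was lower in mice 2 and 3, as were 16 of the 41 genes in all, against 22.3% of tested genes. The part of epithelial content in these values was not tested. The 16 pan-epithelial markers had medians of 0.05, -0.77 and -0.48 in mice 1, 2 and 3 and the 8 tested secretory luminal markers 0.14, -0.79 and -0.98. The medians were below 0 in all 3 mice for the 10 myoepithelial markers (-0.29, -0.48 and -0.65) and for the 7 hormone-sensing luminal markers (-0.23, -0.51 and -0.37). By the same thresholds, 6 of 16 pan-epithelial, 9 of 10 myoepithelial, 3 of 7 hormone-sensing luminal and 1 of 8 secretory luminal markers were lower in Adamts18-/- glands and none was higher. Among all tested genes, 1.84% were lower and 1.17% higher. The summed pan-epithelial level was 1567 to 2267 CPM in WT glands and 1159 to 1570 CPM in Adamts18-/- glands, and the summed myoepithelial level 1316 to 2241 CPM and 886 to 1628 CPM; no marker of these 2 lists was at 0. The 7 markers of hormone-sensing luminal cells, the source of Wnt4, summed to 571 to 752 CPM and 407 to 505 CPM. Prlr alone was at 207 to 453 CPM. Of the 7 markers, 6 were fitted below 0, with Esr1 at -0.02, and Areg was at 0.61. By staining of contralateral grafts, the study found comparable shares of ER+ and of PR+ luminal cells in both genotypes. Those are shares among luminal cells and do not measure the amount of epithelium. In contralateral grafts the study also reported fewer EGFP+ cells by flow cytometry and fewer branching points for Adamts18-/- epithelium.

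When the libraries were scaled to the summed counts of the 16 pan-epithelial markers in place of all genes, the median log2 fold change of all tested genes became 0.463. The scaling raises each gene by about that amount, whatever its cell source, so it is not a test of that source. Krt8, Krt18 and Krt19 had the highest levels of the 16 markers, and were at -0.43, -0.52 and -0.62 with TMM scaling. On the pan-epithelial scale the called genes were near 0, with log2 fold changes of 0.01 for Dkk3, 0.09 for Wnt4, -0.01 for Fzd3 and -0.03 for Wnt7b (p between 0.746 and 0.975, edgeR). None of the 41 genes was then called lower (0.184% of all tested genes were), Fzd9 and Fzd10 were called higher (17.0% of all tested genes were), and 4 of 41 were fitted below 0. The median of the 41 genes was 0.29 on that scale, which is -0.18 relative to all genes, about as far below them as with TMM scaling (-0.17). The sign of most genes thus turned with the scaling. The scaling moves all genes by about the same amount, so the median of the 41 genes relative to all genes could hardly change. That it stayed is not a result about these genes.

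**Figure D4:**
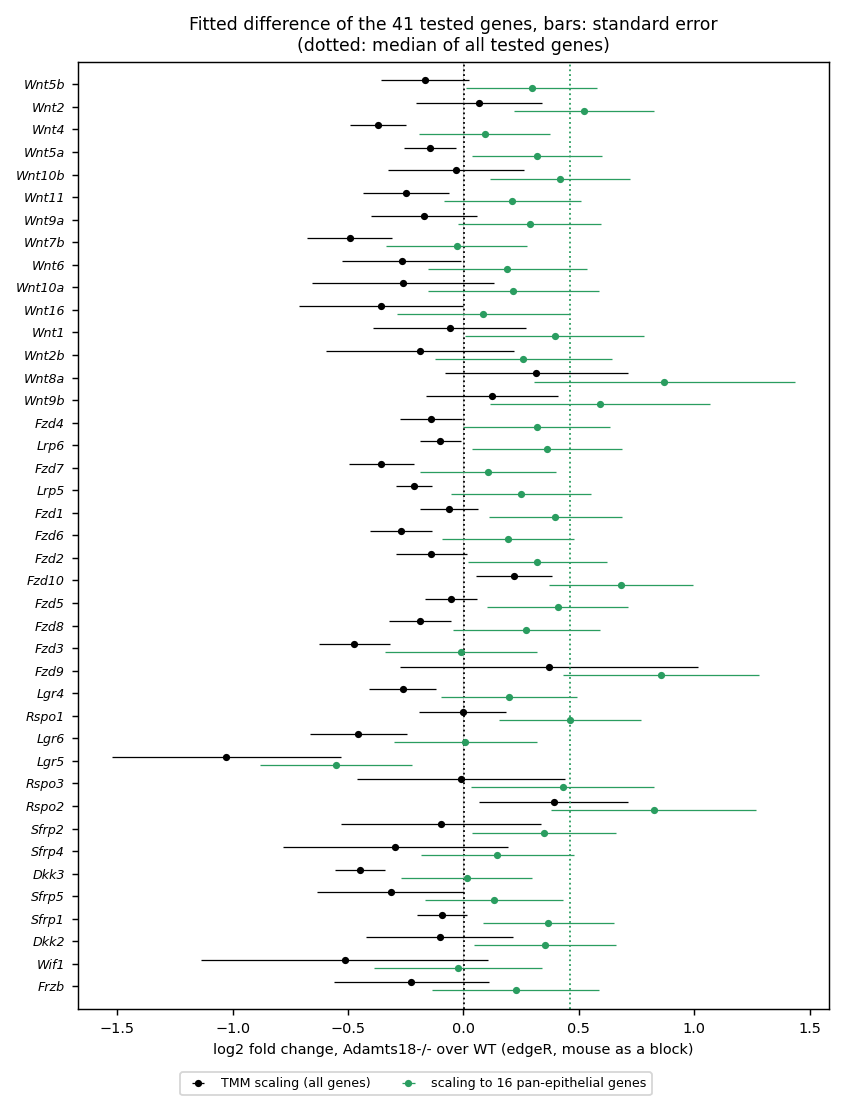
Fitted log2 fold change (Adamts18-/- over WT, edgeR with the mouse as a block) of each tested gene with its standard error, with TMM scaling (black) and with scaling to 16 pan-epithelial genes (green); dotted lines mark the median of all tested genes, 0.00 and 0.463. Most black points lie left of 0 and most green points lie between 0 and their own dotted line.

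The rest of the Wnt pathway was described with a list of 54 genes for secretion, other receptors and modulators, the destruction complex, nuclear effectors and planar cell polarity. Of the 52 tested, 2 were lower in Adamts18-/- glands and none was higher, against 1.84% and 1.17% of all tested genes. The median log2 fold change was -0.07. Tle2, a Groucho co-repressor of TCF factors, was at 28.1, 32.2 and 28.5 CPM in WT glands and 24.7, 22.8 and 23.2 CPM in Adamts18-/- glands (-0.33, SE 0.09, unadjusted p of 0.0199, edgeR). Every Adamts18-/- value of Tle2 was below every WT value. That held for 2 of the 52 genes, against 2.63% of all tested genes, and the reverse for 1, against 2.31%. Celsr2, an atypical cadherin of planar cell polarity, was at 135, 179 and 113 CPM and at 136, 126 and 75.0 CPM, level in mouse 1 and lower in mice 2 and 3 (-0.37, SE 0.14, unadjusted p of 0.0477). Without mouse 2 neither passed (unadjusted p of 0.0996 for Tle2 and of 0.183 for Celsr2), and without mouse 3 Celsr2 did not (unadjusted p of 0.136). The 16 genes of the destruction complex and Dishevelled group had a median of -0.04 and ranged from -0.30 to 0.06. The lowest was Apc2 (SE 0.17, unadjusted p of 0.149, edgeR), the other of the 2 genes whose Adamts18-/- values were all below the WT values. Ctnnb1, which encodes β-catenin, was at -0.08 (SE 0.10, unadjusted p of 0.441). Wls, which carries Wnt proteins to the cell surface, was at 124 to 153 CPM in all 6 glands (0.00, SE 0.09, unadjusted p of 0.984).

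Of 18 genes known as transcriptional targets of canonical Wnt signaling, 16 were tested, and their median was -0.02. None was lower and 1 was higher, against 1.84% and 1.17% of all tested genes. Axin2, the most widely used target, was at 15.6, 14.5 and 14.5 CPM in WT glands and 15.1, 13.0 and 18.0 CPM in Adamts18-/- glands (0.04, SE 0.13, unadjusted p of 0.767, edgeR). Its groups overlapped, and its pairs differed by at most 0.31. Sp5 had 0 counts in every library. Tnfrsf19, a receptor of the tumour necrosis factor family, was the gene called higher, at 1.35, 0.913 and 2.50 CPM in WT glands and 3.61, 2.59 and 2.60 CPM in Adamts18-/- glands (0.99, SE 0.36, unadjusted p of 0.042). The rise was in mice 1 and 2 (1.40 and 1.47) and not in mouse 3 (0.06), as for the skeletal muscle markers (medians 5.08, 3.66 and -0.62), whose part in it was not tested. Without mouse 1 or mouse 2 its p was 0.17 or 0.175.

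Lef1 and Tcf7, which are both Wnt targets and lymphocyte factors, were chosen for mention after their values were seen. They reached 37.1 and 144 CPM in the Adamts18-/- gland of mouse 3, against 0.707 to 6.52 and 7.63 to 40.4 CPM in the other 5 glands. In the same gland the T cell gene Cd3e was at 56.2 CPM and the B cell gene Cd79a at 154 CPM, against at most 21.3 and 37.1 CPM elsewhere. The part of lymphocytes in the Lef1 and Tcf7 values was not tested.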

How the data were processed

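The authors deposited raw read counts per gene symbol for the 6 libraries, without normalization. The submitters' processing notes name bcl2fastq 2.18, TopHat2 2.0.11, featureCounts 1.6.2, edgeR and the build mm9, with no order. The strand setting is not given in the sources used here. The quasi-likelihood test of edgeR 4.0.16 (R 4.3.3) was run on the genes kept by filterByExpr, two-sided, with TMM factors and a term for the mouse, and adjusted by the Benjamini-Hochberg method over 17345 genes. A prior count of 2 was used for log2 CPM. Pairing comes from the mouse numbers of the labels and the contralateral pairs of the study; deviations of same-numbered glands from their group means correlated at 0.512, 0.505 and 0.639. Exon lengths and positions are from GENCODE M21 on GRCm38, another build than that of the counts. The text names genes past the thresholds, the 2 of each role with the highest length-scaled level, Wnt4, Lgr5, Lrp6 and Axin2; others are named by level or count. Members and lists were chosen with earlier results of these data known. Draxin and Trabd2b were not matched. Alternatives were DESeq2 1.42.0, limma-voom (limma 3.58.1), no block, other scalings and filters, and leaving out each mouse. The fits were checked on simulated data. The values of 1 gene on the leukocyte list are not reported here; it stayed in the sums and medians of that list.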

Additional observations from a re-analysis of the deposited data

How the results depend on the processing

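Without the replicate block, 0 of the tested Wnt ligands, receptors and modulators were called lower and 0 higher, with 1 of the pathway components and 0 of the canonical targets called; Wnt2 was at -0.02 and Sfrp2 at 0.06, each on the other side of 0 from its paired fit. Scaling to the pan-epithelial genes gave 0 called lower and 2 higher, 1 component and 4 targets called, and a median of 0.29. The signs of Dkk3 (0.01), Wnt4 (0.09), Fzd4 (0.32), Lrp6 (0.36), Lgr4 (0.20), Rspo1 (0.46), Wnt5b (0.30), Sfrp2 (0.35), Sfrp4 (0.15), Tle2 (0.14) and Celsr2 (0.10) turned under it; the median of all tested genes was then 0.463. With each mouse left out in turn, 1 to 8 genes were called lower and 0 to 2 higher, 0 to 4 components and 0 to 1 targets were called, and the log2 fold change ranged from -0.30 to 0.01 for Fzd4, -0.20 to 0.21 for Rspo1, -0.42 to 0.03 for Wnt5b, -0.27 to 0.40 for Wnt2, -0.54 to 0.51 for Sfrp2, -0.80 to 0.38 for Sfrp4 and -0.09 to 0.14 for Axin2. The 8 called lower without mouse 1 were Dkk3, Fzd6, Fzd7, Lgr5, Lgr6, Wif1, Wnt4 and Wnt7b (2.73% of all genes were called lower), and the 1 called without mouse 2 was Sfrp5 (1.22%). DESeq2 called Dkk3, Wnt4, Wnt7b, Fzd7 and Lgr5 (1.71%); no filter added Fzd7; limma-voom, the other scalings and the other filters called the same 4 genes. No adjusted p of the 41 genes passed under any setting. Over all genes, 319 were called lower and 203 higher; the pan-epithelial scaling gave 32 and 2951, and the fit without the block 125 and 218. The causes of these moves were not tested. Genes under about 1 CPM, such as Fzd9 with 10 to 59 counts, are limited by depth.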
